A study of Mus musculus with 4 samples.

Results

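The genes described here are 44 genes of the cell division cycle, followed in mouse brain cells 3 days after a stroke. They comprise 20 genes transcribed around DNA replication, called S members, and 24 genes used in G2 and mitosis, called mitotic members. All 44 were found by symbol among the 31253 genes of the deposited tables. The 4 libraries of single cells that were compared, 2 per group, came from the ipsilateral hemisphere after transient middle cerebral artery occlusion (tMCAO). The Flox control libraries came from Htr2b flox/flox littermates, and the Ms4a3 cKO libraries from mice described as Htr2b ERCre; Ms4a3-Cre. Htr2b encodes the serotonin receptor 5-HT2B, and Ms4a3 is a gene of granulocyte and monocyte progenitors. The mice were adults on a C57B6 background, of either sex, and received tamoxifen with a washout of 3 days before surgery. The labels do not give the sex behind each library, do not say whether a library held 1 animal or a pool, and do not settle which Cre acted in the Ms4a3 cKO mice. P-values therefore measure the spread between these libraries, which may be partly technical. Cells were dissociated with enzymes, were not enriched for any type, and were captured on the BD Rhapsody platform, which reads transcripts near their 3′ end and counts molecules by unique molecular identifier (UMI).

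A dividing cell first licenses and copies its DNA and then separates the copies. The Mcm2 to Mcm7 proteins form the replicative helicase, Cdt1 and Cdc6 load it, Gins2 helps to activate it and Pcna is the sliding clamp of the polymerases. Rrm1, Rrm2, Tyms, Tk1 and Dut supply or clean the nucleotide pool, Uhrf1 and Hells maintain DNA methylation, Pclaf binds Pcna, and Ccne1 and Ccne2 are the cyclins of the entry into S phase. In mitosis Cdk1 acts with cyclins A2, B1 and B2, Top2a untangles DNA, Cenpe, Cenpf, Knl1, Bub1 and Bub1b work at kinetochores, and Birc5 and Aurkb belong to the chromosomal passenger complex. Aurka, Tpx2, Plk1, Kif11, Kif23, Prc1, Nusap1 and Hmmr build or use the spindle, and Cdc20 and Ube2c serve the anaphase-promoting complex. Mki67 encodes the proliferation antigen Ki-67 and Pbk a mitotic kinase. Genes of the S group are classically controlled by E2F factors, and those of the mitotic group by the DREAM and MuvB complexes through a cell cycle homology region (CHR) and CCAAT boxes. Microglia and infiltrating macrophages both divide in the days after ischaemia.

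The promoters of the 2 groups held some motifs at different frequencies, a description with no test, and most S windows had no E2F motif and most mitotic windows no CHR. RefSeq windows (GRCm38.p6) were matched for 37 of the 44 members, giving 40 windows, 19 of S and 21 of mitotic members. Mcm4, Gins2, Ccne2, Aurkb, Ccna2, Pbk and Tpx2 had no window there. The 250 bases before each start were searched on both strands, where each motif also counts in its reverse complement. An E2F motif (TTTGGCGC, TTTCGCGC, TTTGCCGC or TTTCCCGC) lay in 6 of 19 S windows (31.6%) and 1 of 21 mitotic windows (4.76%), against 1.86% of all 32851 windows. A CHR (TTTGAA or TTCGAA) lay in 2 S windows (10.5%) and 9 mitotic windows (42.9%), against 17.15% of all windows. CCAAT was present in 12 S windows (63.2%) and 18 mitotic windows (85.7%), against 33.85% of all. A CHR and a CCAAT box occurred together in 9 mitotic windows (42.9%), 2 S windows (10.5%) and 6.02% of all windows. The single mitotic window with an E2F motif belonged to Cdk1, which also held a CHR. These are matches of letters and not measured binding sites. The 5 stretches below lie outside annotated transcripts and are shown 5′ to 3′ on the gene's strand, because they hold these motifs in members whose levels are described further on. Capitals mark the matches to the E2F, CHR and CCAAT letters, and adjoining or overlapping matches run together, as in Mcm5, where TTTCGCGC and the reverse of TTTGGCGC share 4 bases. The stretches lie at chr1:128359715-128359812 for Mcm6, chr8:75109300-75109397 for Mcm5, chr7:135716442-135716537 for Mki67, chr11:99024190-99024272 for Top2a and chr10:69352948-69353043 for Cdk1, all on the minus strand but that of Mcm5.
Mcm6: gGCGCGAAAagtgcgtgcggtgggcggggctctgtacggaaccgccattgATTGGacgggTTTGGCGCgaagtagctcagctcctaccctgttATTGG
Mcm5: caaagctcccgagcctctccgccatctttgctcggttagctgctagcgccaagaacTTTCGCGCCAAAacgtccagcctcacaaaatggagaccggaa
Mki67: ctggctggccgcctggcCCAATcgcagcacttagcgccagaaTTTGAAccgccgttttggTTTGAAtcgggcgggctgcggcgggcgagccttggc
Top2a: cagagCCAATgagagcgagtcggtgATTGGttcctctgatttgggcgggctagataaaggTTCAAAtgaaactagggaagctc
Cdk1: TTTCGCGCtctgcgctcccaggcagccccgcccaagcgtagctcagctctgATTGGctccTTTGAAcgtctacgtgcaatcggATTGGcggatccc

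The tables held 63181 barcodes, and 59685 cells were kept, between 13215 and 16267 per library, with medians of 3764 to 6599 UMIs per cell. Clustering without the members and the lists of other cell cycle genes gave 30 clusters, of which 28 were named by markers of brain and blood cells. Genes of division outside these lists, such as Prr11, were not removed, and a cluster of 6025 cells was still led by Mki67 and Cenpe. Those names are rebuilt from markers and are not the authors'. Names were weak in parts of the class named monocyte-macrophage. Its largest cluster (7197 cells, led by Arg1 and Thbs1) scored 0.57 for border macrophage markers and 0.44 for its own list, and the next (3577 cells, led by Atp6v0d2, Gdf3 and Gpnmb) scored below 0 for every list, with the class markers Lyz2 and Ms4a7 among its top 10 genes. Cells with microglial markers formed 5 clusters. Of these, the cluster led by Mki67 scored 0.37 for microglial and 0.29 for erythroid markers, and the others scored 1.08 to 1.76 for microglial markers. The 11 microglial markers summed to between 16306 and 30016 counts per 1000000 UMIs (CPM) in them and to between 3060 and 9691 CPM in the cells named monocyte-macrophages. The 12 monocyte and macrophage markers summed to 34820 to 53661 CPM in monocyte-macrophages and 2307 to 3647 CPM in microglia. Flox control 1 stood apart from the other libraries: 3269 of its 3765 monocyte-macrophages lay in a cluster that held 274 cells of Flox control 2, 8 of Ms4a3 cKO 1 and 26 of Ms4a3 cKO 2. Its microglia stood apart too: 4881 of 5379 lay in the 3 clusters led by Siglech, Ifit3 and Mmp12, which held 928 of 4273 in Flox control 2, 387 of 4529 in Ms4a3 cKO 1 and 1181 of 5969 in Ms4a3 cKO 2. Most microglia of those libraries lay in the other 2 clusters. The targeted gene followed the labels in monocyte-macrophages, where Htr2b reached 83.3 CPM in Flox control 1, 128 CPM in Flox control 2, 10.7 CPM in Ms4a3 cKO 1 and 27.1 CPM in Ms4a3 cKO 2. In microglia the values in that order were 46.0, 109, 100 and 85.3 CPM, and the groups overlapped. Across libraries 13 barcode sequences were shared. Values of 4 libraries are given below in the order Flox control 1, Flox control 2, Ms4a3 cKO 1 and Ms4a3 cKO 2.

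Dividing cells were found mostly among microglia. To compare cells of unequal depth, each cell was thinned at random to 2000 UMIs, and a cell was called cycling when it then showed UMIs of at least 4 different S members or at least 3 different mitotic members. Of 48194 cells deep enough to be called, 5926 (12.3%) were cycling, and another 2113 lay 1 gene below a call. Microglia held 64.6% of all cycling cells, monocyte-macrophages 12.3%, fibroblasts 3.43%, dendritic cells 3.05%, and every other named class under that. Microglia were also the class with the most callable cells, and the depth needed for a call left out classes unevenly. It kept 508 of 1016 choroid plexus cells, 754 of 1415 fibroblasts and 2597 of 4483 endothelial cells. In the largest microglial cluster it kept 6557 of 6748 cells. Of the cycling microglia, 2734 lay in the cluster led by Mki67, the microglial cluster with the lowest marker score. By library these were 159, 864, 707 and 1004 cells, and the cluster led by Mmp12 held 613, 63, 14 and 42. Most cycling microglia of Flox control 1 thus lay in another cluster than those of the other libraries. The microglial share was 16.7% (881 of 5261 cells, 95% exact binomial interval 15.7 to 17.8), 24.7% (1020 of 4128, 23.4 to 26.1), 18.1% (795 of 4385, 17 to 19.3) and 19.7% (1134 of 5750, 18.7 to 20.8). Flox control 2 was the highest and Flox control 1 the lowest, with both Ms4a3 cKO libraries between them. The intervals cover counting error only. The class named oligodendrocytes, meant as a background because mature oligodendrocytes do not divide, lay at 0.401%, 2.14%, 0.884% and 1.11%. It included a cluster of 1370 cells, led by Syt4 and Dusp10, that scored 1.175 for oligodendrocyte markers, against 3.379 to 4.946 in its other clusters. That cluster lay at 2.56%, 4.00%, 1.03% and 3.02%, so not all cells of the background are shown to be mature. At full depth the microglial shares were 27.5%, 38.1%, 27.8% and 31.2% and those of oligodendrocytes 9.11%, 9.46%, 3.90% and 4.50%. The median depth of cycling microglia was 10640 to 11696 UMIs before thinning and that of other microglia 4528 to 6132.

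In monocyte-macrophages the libraries did not resemble each other. The cycling share was 15.1% in Flox control 1 (548 of 3640 cells, 13.9 to 16.3), 2.29% in Flox control 2 (100 of 4363, 1.87 to 2.78), 1.27% in Ms4a3 cKO 1 (36 of 2829, 0.893 to 1.76) and 3.07% in Ms4a3 cKO 2 (46 of 1498, 2.26 to 4.07). Flox control 1 was thus far above the rest. The intervals of Flox control 2 and Ms4a3 cKO 1 overlapped that of the oligodendrocyte background of the same library, and that of Ms4a3 cKO 2 lay above it. The reading depends on the background class. Choroid plexus, also meant as background, lay at 2.70%, 5.26%, 1.59% and 6.57%, above the monocyte-macrophages of every library but Flox control 1. In the cluster that held most monocyte-macrophages of Flox control 1, 16.3% of its cells were cycling, against 2.04% of the 245 callable cells of Flox control 2 there. In the cluster that held most cells of the other libraries, the shares were 9.26%, 2.33%, 1.25% and 2.81%. Dendritic cells had the same pattern, with 14.97% in Flox control 1, 3.10% in Flox control 2, 2.02% (2 of 99 cells) in Ms4a3 cKO 1 and 1.33% (1 of 75) in Ms4a3 cKO 2. That class also carried monocyte and macrophage markers, at 9842 to 19318 CPM with Flox control 1 the highest, and its own markers at 1018 to 1941 CPM. Border macrophages, the resident macrophages of the meninges and vessels, lay at 13.3%, 13.2%, 13.9% and 8.80%.

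Other classes contributed fewer cells, and their shares varied widely between libraries. The class named oligodendrocyte progenitors, the dividing glia of the adult brain, was cycling at 9.09%, 31.4%, 46.7% and 33.8%, the third of these from 15 callable cells. In Flox control 1 it carried 26273 CPM of oligodendrocyte markers against 6668 CPM of progenitor markers, so its name was weak there. Elsewhere the oligodendrocyte markers came to 3160 to 4217 CPM and the progenitor markers to 8502 to 10920 CPM. Neuroblasts lay at 47.9%, 28.7%, 10.8% and 24.4%, and fibroblasts at 1.97%, 41.5%, 31.7% and 12.3%. Astrocytes were at 23.1% in Flox control 2 and between 5.64% and 8.70% elsewhere. Their larger cluster lay at 30.8%, 34.0%, 11.3% and 12.1%, the first of these from 39 callable cells, and their smaller cluster did not pass 1.94%. T and NK cells lay at 21.5%, 15.4%, 12% and 12.5%. Endothelial cells did not pass 2.91%, mural cells reached 9.62% in Flox control 2 only, and no ependymal cell was called among 15 to 37 per library. Choroid plexus and neutrophils, also meant as background, lay above oligodendrocytes, at 1.59% to 6.57% and at 1.75% to 20.0%, the highest from 70 neutrophils of Ms4a3 cKO 2. Of 951 callable predicted doublets, which were left out, 11.5% would have been called cycling.

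**Figure D1:**
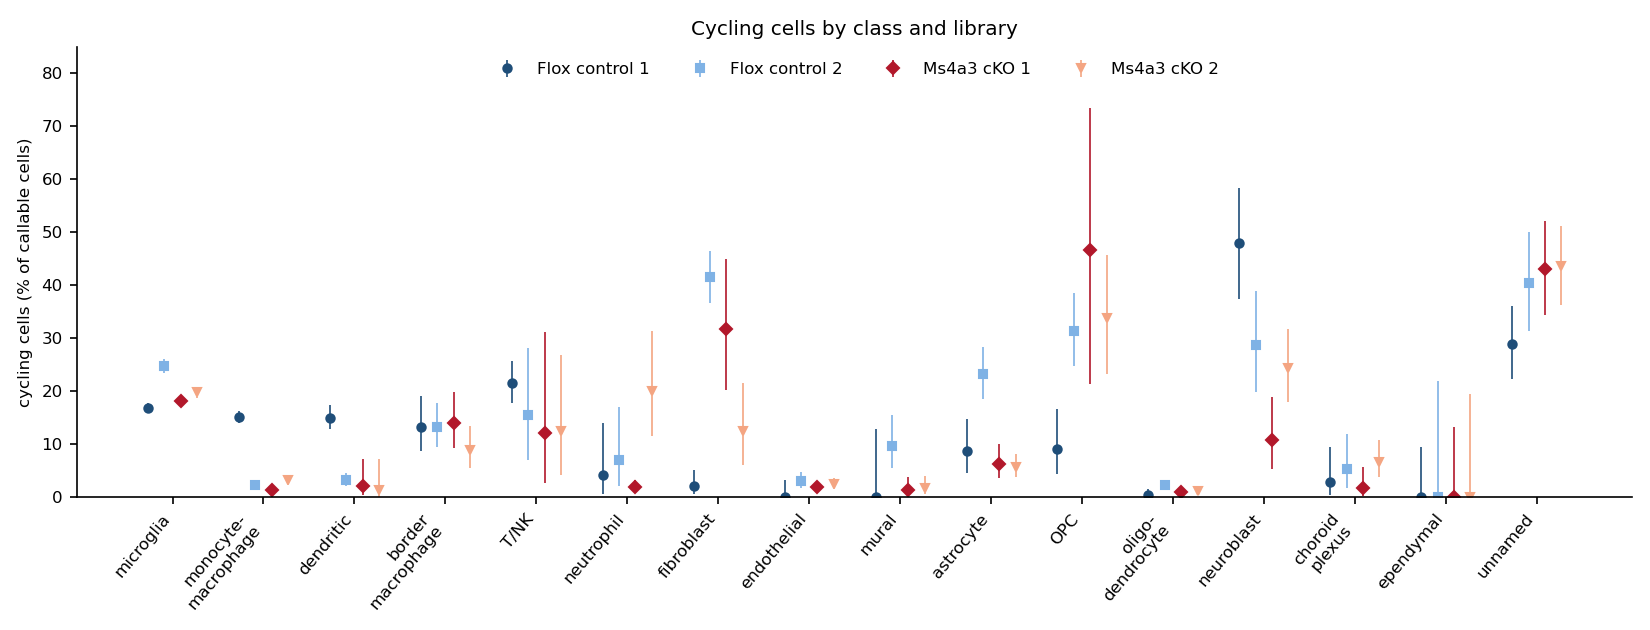
Share of callable cells that were cycling (y axis, percent) for each cell class (x axis) and library (colour and symbol), with 95% exact binomial intervals. Microglia lie between 16.7% and 24.7% in all 4 libraries, while monocyte-macrophages and dendritic cells are at about 15% in Flox control 1 and under 4% in the others.

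Cycling microglia were spread over the S and the mitotic part of the cycle. Cells with a mitotic call alone were 38.3%, 36.3%, 44.4% and 45.1% of the cycling microglia, cells with an S call alone 26.7%, 23.1%, 22.3% and 22.6%, and cells with both calls 35.1%, 40.6%, 33.3% and 32.4%. The mitotic-only share was higher in both Ms4a3 cKO libraries than in either Flox control, but the intervals of Flox control 1 (35.03 to 41.6) and Ms4a3 cKO 1 (40.9 to 47.9) overlapped. No test of phase against phase was made. Among the 548 cycling monocyte-macrophages of Flox control 1, 17.9% had an S call alone, 42.7% a mitotic call alone and 39.4% both. The cycling share of microglia also differed between their clusters. The highest shares, 56.2%, 48.3%, 45.4% and 43.2%, lay in the cluster led by Mki67 and other members. The call uses these members, so this share is a description. In the cluster led by Mmp12 the shares were 29.5%, 33.7%, 45.2% and 30.2%, and in that led by Ifit3 8.71%, 27.1%, 18.8% and 8.55%. In the pair of clusters with the fewest cycling cells the shares ran from 1.75% to 2.94%.

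Summed over all microglia of a library, the S members came to 1181, 1614, 1292 and 1306 CPM and the mitotic members to 1652, 2517, 2107 and 2216 CPM. The 6 S members with the highest CPM were Pcna, Rrm1, Pclaf, Mcm4, Rrm2 and Mcm3. Pcna, the polymerase clamp, stood at 433, 533, 422 and 427 CPM. Rrm1, the large subunit of ribonucleotide reductase, was at 123, 198, 183 and 178 CPM, and its partner Rrm2 at 69.2, 106, 76.1 and 78.2 CPM. For both subunits Flox control 1 was the lowest and Flox control 2 the highest library. Pclaf, which binds Pcna, was at 107, 153, 88.6 and 103 CPM, so that both Flox controls lay above both Ms4a3 cKO libraries. The helicase subunits Mcm4 and Mcm3 were counted at 73.3, 112, 96.4 and 97.0 CPM and at 52.1, 94.2, 80.6 and 76.5 CPM. Here too the 2 Flox controls enclosed the Ms4a3 cKO libraries. The other S members ranged from a mean of 4.39 CPM for Ccne1 to 54.8 CPM for Mcm6.

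Among the 6 mitotic members with the most UMIs, Flox control 1 was the lowest and Flox control 2 the highest for all but Birc5. Mki67 was at 296, 511, 446 and 484 CPM and Top2a at 196, 327, 248 and 252 CPM. Cenpe, a kinetochore motor, was at 84.5, 164, 134 and 140 CPM. Tpx2, which activates Aurora A on the spindle, was at 97.4, 132, 121 and 125 CPM, and Cdk1, the mitotic kinase, at 96.5, 137, 117 and 125 CPM. Birc5, or survivin, varied least of the 6, at 134, 151, 136 and 132 CPM. The other mitotic members ran from a mean of 4.89 CPM for Cdc20, the activator of the anaphase-promoting complex, to 111 CPM for Ccna2.

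In monocyte-macrophages the members depended on 1 library. The S members summed to 1048, 508, 412 and 481 CPM and the mitotic members to 1292, 215, 172 and 348 CPM. Pcna was at 406, 251, 198 and 214 CPM, Rrm1 at 100, 51.4, 47.5 and 60.9 CPM and Mcm4 at 59.7, 39.1, 39.8 and 46.3 CPM. Pclaf spread more, at 115, 15.3, 6.65 and 16.9 CPM. Mcm3 and the licensing factor Cdt1 spread less, at 37.7, 37.7, 33.5 and 30.7 CPM and at 37.3, 25.03, 22.3 and 24.6 CPM. Of these S members, each but Mcm3 was highest in Flox control 1. Mki67 was at 201, 48.3, 40.4 and 70.8 CPM, Top2a at 142, 29.2, 24.4 and 41.5 CPM and Birc5 at 139, 12.8, 7.34 and 18.7 CPM. Cdk1 was at 83.1, 14.1, 11.2 and 22.9 CPM, Tpx2 at 74.6, 11.2, 10.9 and 20.9 CPM and Ccna2 at 84.5, 8.13, 5.52 and 15.9 CPM. In these 6 mitotic members Flox control 2 lay between the 2 Ms4a3 cKO libraries. The 5 core microglial markers moved with the members, at 995, 486, 407 and 466 CPM in monocyte-macrophages against 4812, 3403, 2444 and 2683 CPM in microglia, and their part in the levels was not tested.

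**Figure D2:**
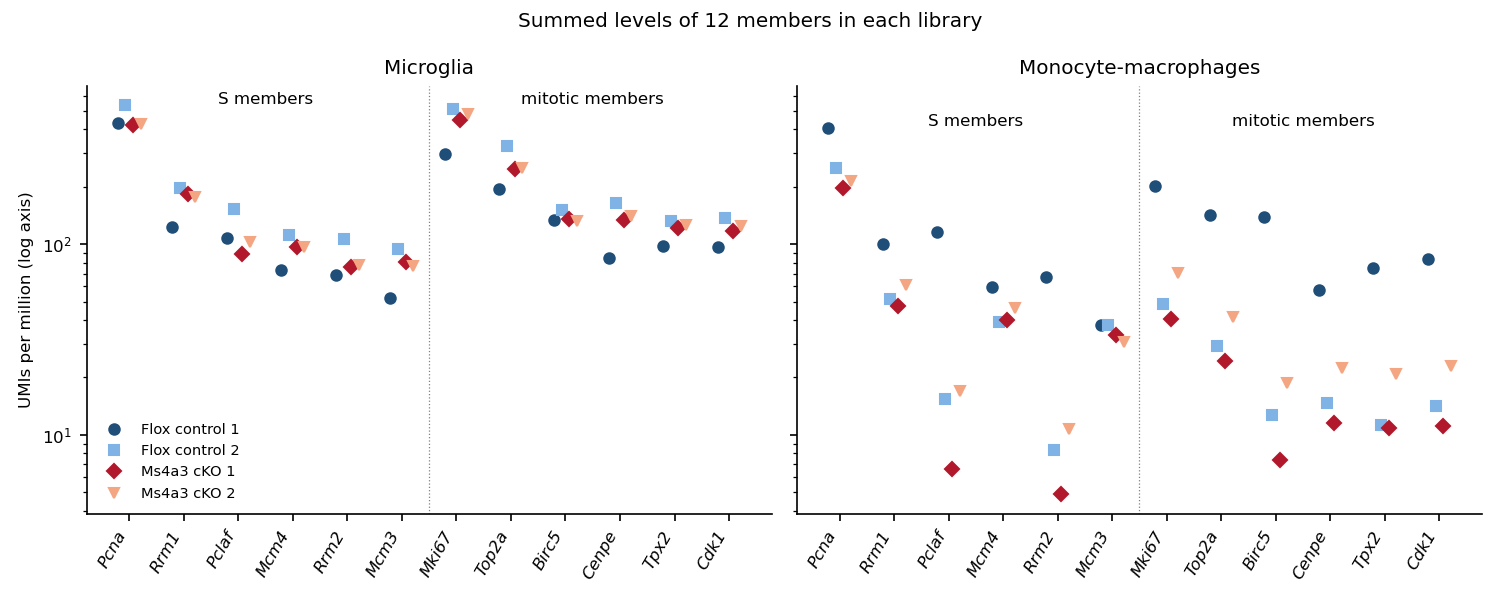
CPM (y axis, log scale) of the 6 S and 6 mitotic members with the most UMIs in microglia (x axis), summed over the microglia (left) and the monocyte-macrophages (right) of each library (colour and symbol). The libraries lie close together in microglia, and in monocyte-macrophages Flox control 1 lies above the rest for 11 of the 12 genes.

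Within libraries, the members were higher in the cells named microglia, the cluster led by Mki67 included, than in monocyte-macrophages. That cluster scored 0.37 for microglial and 0.29 for erythroid markers and held 2734 of the cycling microglia. Its part in the difference was not tested. Both classes of the same library were compared in edgeR's quasi-likelihood test with the library as a block, and a gene was called at an adjusted p (Benjamini-Hochberg over all 14824 genes tested) under 0.05. Of the 44 members, 40 were higher in microglia, 17 S and 23 mitotic, and none was lower. Over all genes 25.2% were called higher in microglia and 25.2% lower. The median log2 fold change was 1.39 for the S members and 2.42 for the mitotic members, against 0.02 for all genes. The largest differences among S members were those of Uhrf1 (log2 fold change 2.78, SE 0.66) and Rrm2 (2.52, SE 0.75), and among mitotic members those of Pbk (3.09, SE 0.74) and Hmmr (2.86, SE 0.82). Uhrf1 was counted at 40.9, 50.2, 37.8 and 41.8 CPM in microglia and 25.05, 4.61, 1.63 and 3.94 CPM in monocyte-macrophages. Pbk was counted at 49.0, 63.8, 49.9 and 54.6 CPM in microglia and 29.9, 3.29, 2.02 and 4.75 CPM in monocyte-macrophages. For both genes the 2 classes did not overlap, and the difference was smallest in Flox control 1. Pcna, Mcm4 and Mcm3 differed less, with log2 fold changes of 0.66 (SE 0.20), 0.88 (SE 0.22) and 0.93 (SE 0.18), and the other helicase subunits are given below. Cdt1 did not pass (0.17, SE 0.18, edgeR adjusted p = 0.462), and Ube2c, Ccne1 and Dut missed the threshold at adjusted p-values of 0.0517, 0.0542 and 0.0718.

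The other S members are given by their roles. Among helicase subunits, Mcm2 was at 29.8, 39.97, 34.5 and 34.4 CPM in microglia and 24.1, 11.8, 10.2 and 11.03 CPM in monocyte-macrophages (log2 fold change 1.20, SE 0.29). Mcm5 was at 36.6, 33.3, 28.7 and 25.8 CPM and 23.5, 5.34, 3.30 and 5.55 CPM (log2 fold change 1.95, SE 0.44). Mcm6 was at 50.6, 64.4, 52.4 and 51.6 CPM and 44.4, 19.6, 14.6 and 18.3 CPM (log2 fold change 1.15, SE 0.31). In these 3 subunits Flox control 1 was the highest library of the monocyte-macrophages. Mcm7 was at 12.02, 17.6, 17.03 and 15.7 CPM and 9.41, 3.63, 3.35 and 4.59 CPM (log2 fold change 1.51, SE 0.38). Gins2, a helicase cofactor, was at 5.15, 16.98, 11.9 and 13.7 CPM and 5.07, 5.60, 4.53 and 4.11 CPM (log2 fold change 1.023, SE 0.32). Its microglial value in Flox control 1 was close to the monocyte-macrophage values, and the other 3 were above all of these. Of the loaders, Cdc6 was at 9.11, 14.2, 9.57 and 10.1 CPM and 8.59, 2.73, 1.63 and 1.77 CPM (log2 fold change 1.65, SE 0.49), and Cdt1 at 31.2, 36.3, 36.4 and 31.8 CPM in microglia, overlapping the monocyte-macrophages.

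In nucleotide supply, Tyms, the thymidylate synthase, was at 30.7, 25.03, 25.3 and 23.99 CPM in microglia and 22.4, 3.99, 3.35 and 3.86 CPM in monocyte-macrophages (log2 fold change 1.96, SE 0.47). Tk1, the thymidine kinase, was at 10.9, 14.9, 14.3 and 14.4 CPM and 8.59, 1.35, 0.542 and 1.93 CPM (log2 fold change 2.499, SE 0.73). The small subunit Rrm2 was at 67.5, 8.30, 4.88 and 10.7 CPM in monocyte-macrophages, a wider spread than that of Rrm1. Dut, which removes dUTP, was at 12.1, 16.04, 11.3 and 12.2 CPM and 12.9, 5.74, 3.89 and 5.71 CPM (log2 fold change 0.83, SE 0.31). Its Flox control 1 values differed little between the classes, and it was not called. Hells, a chromatin remodeller, was at 35.2, 59.3, 48.6 and 49.8 CPM and 23.8, 12.7, 10.5 and 12.6 CPM (log2 fold change 1.58, SE 0.32). The cyclin Ccne2 was at 15.2, 24.1, 13.8 and 17.1 CPM and 13.1, 2.00, 0.837 and 2.01 CPM (log2 fold change 2.46, SE 0.71). Ccne1, its paralog, was at 3.27, 5.89, 4.15 and 4.23 CPM and 3.16, 1.63, 1.08 and 1.69 CPM (log2 fold change 1.08, SE 0.37). Only Ccne2 of the pair was called, and the difference between the pair was not tested.

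Among the mitotic cyclins, Ccna2 was at 98.0, 123, 107 and 117 CPM in microglia (log2 fold change 2.70, SE 0.76). Ccnb1 was at 39.03, 56.1, 55.6 and 50.8 CPM in microglia and 36.9, 4.27, 4.09 and 8.93 CPM in monocyte-macrophages (log2 fold change 2.37, SE 0.71). Ccnb2 was at 32.7, 39.3, 36.5 and 41.1 CPM and 25.8, 3.04, 2.27 and 6.12 CPM (log2 fold change 2.503, SE 0.68). In all 3 cyclins Ms4a3 cKO 1 was the lowest library of the monocyte-macrophages. Of the kinases, Aurka was at 12.7, 14.6, 11.7 and 12.02 CPM and 10.9, 1.72, 1.38 and 2.495 CPM (log2 fold change 1.93, SE 0.56). Aurkb was at 35.97, 41.7, 39.5 and 39.4 CPM and 27.5, 5.57, 6.99 and 10.9 CPM (log2 fold change 1.74, SE 0.45). Plk1 was at 8.57, 11.5, 11.9 and 11.1 CPM and 6.85, 0.731, 0.394 and 1.77 CPM (log2 fold change 2.53, SE 0.78). The genes of Bub1 and Bub1b, which guard the spindle checkpoint, were both higher in microglia. Bub1 was at 60.1, 71.0, 50.5 and 53.02 CPM and 52.2, 6.10, 4.14 and 6.84 CPM (log2 fold change 2.43, SE 0.67), and Bub1b at 9.44, 17.2, 17.4 and 17.1 CPM and 7.99, 2.36, 5.17 and 3.86 CPM (log2 fold change 1.56, SE 0.45).

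At the kinetochore, Cenpf was at 72.0, 112, 95.5 and 111 CPM in microglia and 41.3, 6.21, 4.63 and 17.9 CPM in monocyte-macrophages (log2 fold change 2.82, SE 0.68). Knl1, the scaffold of the outer kinetochore, was at 40.6, 75.3, 57.8 and 67.0 CPM and 30.3, 7.90, 6.45 and 11.7 CPM (log2 fold change 2.19, SE 0.54). Cenpe was at 57.6, 14.8, 11.5 and 22.5 CPM in monocyte-macrophages (log2 fold change 2.42, SE 0.57). These 3 genes were called in microglia against monocyte-macrophages, and in each Ms4a3 cKO 2 was the second highest library of the latter. Among motors and bundlers of the spindle, Kif11 was at 36.5, 57.98, 46.5 and 48.7 CPM and 27.1, 6.19, 3.05 and 5.71 CPM (log2 fold change 2.49, SE 0.63). Kif23 was at 28.1, 58.5, 46.6 and 50.7 CPM and 22.8, 5.62, 4.14 and 10.3 CPM (log2 fold change 2.21, SE 0.60). Prc1 was at 66.5, 119.5, 92.0 and 95.2 CPM and 55.00, 7.54, 5.96 and 14.3 CPM (log2 fold change 2.61, SE 0.73). All 3 were called, and in each Flox control 1 was the highest library of the monocyte-macrophages.

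Hmmr was at 70.8, 109, 95.3 and 95.2 CPM in microglia and 58.95, 6.75, 3.45 and 12.3 CPM in monocyte-macrophages (log2 fold change 2.86, SE 0.82). Nusap1 was at 48.3, 6.50, 4.68 and 9.18 CPM in monocyte-macrophages (log2 fold change 2.45, SE 0.65). Of the genes of the anaphase-promoting complex, Ube2c was at 25.8, 37.2, 26.5 and 28.7 CPM and 26.1, 2.05, 1.72 and 6.04 CPM (log2 fold change 2.37, SE 0.80). Ube2c came near the same level in both classes of Flox control 1, and it was the single mitotic member not called. Cdc20 was at 2.63, 5.92, 5.45 and 5.57 CPM and 2.12, 0.506, 0.542 and 1.45 CPM (log2 fold change 1.97, SE 0.60). The 6 mitotic members with the most UMIs had log2 fold changes of 2.44 for Mki67 (SE 0.56), 2.36 for Top2a (SE 0.57), 2.54 for Birc5 (SE 0.78), 2.42 for Cenpe (SE 0.57), 2.37 for Tpx2 (SE 0.61) and 2.20 for Cdk1 (SE 0.60). The 5 genes whose promoter stretches are shown above, Mcm5, Mcm6, Mki67, Top2a and Cdk1, were all among those called.

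The direction of this difference held for all 44 members in each of the 8 other settings, but the number called depended on the libraries. Without Flox control 1 all 44 were called, against 26.2% of all genes called higher, with medians of 1.87 and 3.24. Without Flox control 2 only Hells and Mcm3 were called (18.2% of all genes), without Ms4a3 cKO 1 Hells, Mcm3, Mcm5, Mki67 and Uhrf1 (20.3% of all genes), and without Ms4a3 cKO 2 Hells and Mcm3 (17.3% of all genes), with medians no lower than 1.17 for the S and 2.03 for the mitotic members. The related lists moved the same way: 25 of 34 other replication genes and 44 of 52 other mitotic genes were higher in microglia and none was lower, with medians of 0.97 and 2.00. Of 17 genes of the Rb, E2F and MuvB group, 9 were higher and 1 lower, and of 24 chromatin and tubulin genes 10 were higher and 1 lower.

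**Figure D3:**
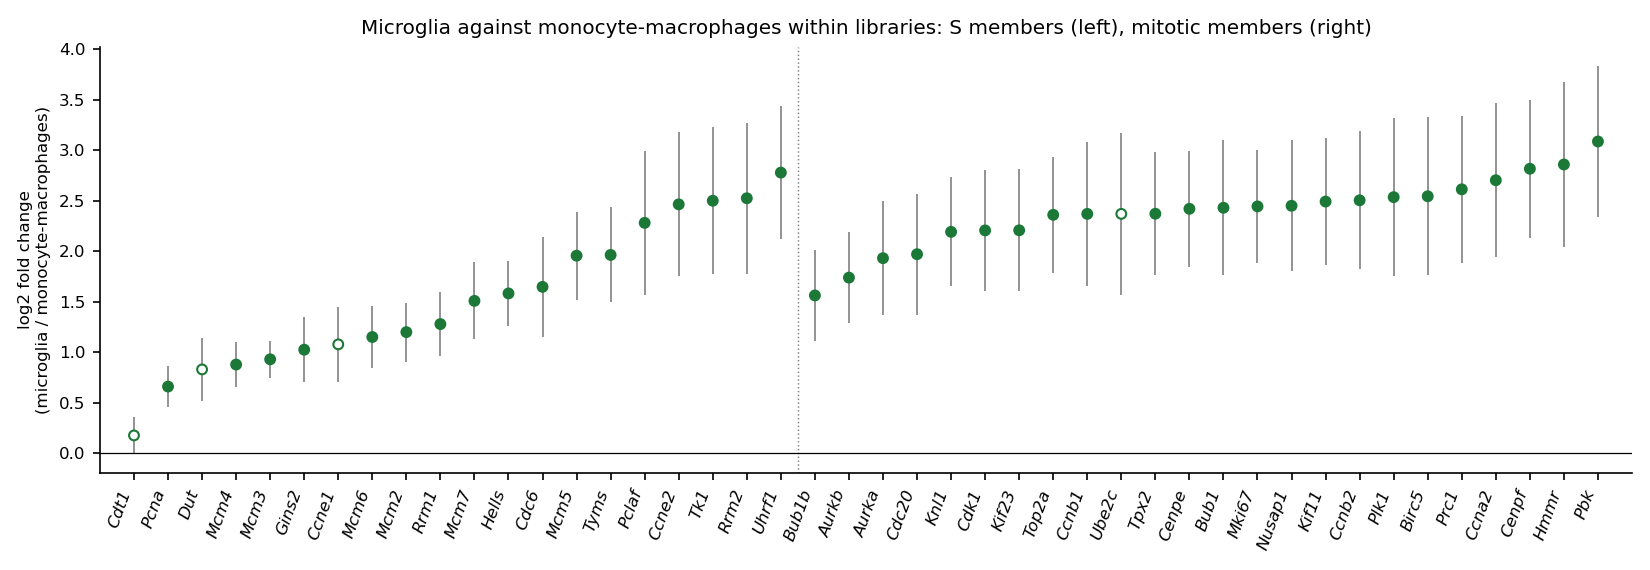
Log2 fold change of each member between microglia and monocyte-macrophages of the same libraries (y axis), with bars of 1 SE, for S members (left) and mitotic members (right) in order of size. Filled points passed an adjusted p of 0.05, and open points did not; all 44 lie above 0, and the 4 open points are Cdt1, Dut, Ccne1 and Ube2c.

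The study's own comparison, between the Ms4a3 cKO and Flox control libraries, called no member in microglia. None of the 44 was called, against 0% of all 14327 genes tested. At an unadjusted p under 0.05 there were 4 members, Mcm5, Pclaf, Bub1 and Nusap1, and 1539 genes in all, while DESeq2 called 280 genes and no member. The median log2 fold change was -0.26 for the S members, 4 of 20 of them positive, and -0.06 for the mitotic members, 8 of 24 positive, against -0.00 for all genes. Mcm5, a helicase subunit, gave 36.6 and 33.3 CPM for the Flox controls against 28.7 and 25.8 CPM for the Ms4a3 cKO libraries (log2 fold change -0.51, SE 0.19, edgeR adjusted p = 0.459). In these values the groups did not overlap. Pclaf had the lowest estimate of the S members (-0.57, SE 0.17, edgeR adjusted p = 0.453) and Bub1 that of the mitotic members (-0.48, SE 0.13, edgeR adjusted p = 0.452). Nusap1, which bundles spindle microtubules, gave 61.1 and 81.8 CPM for the Flox controls against 59.7 and 60.6 CPM for the Ms4a3 cKO libraries (-0.38, SE 0.14, edgeR adjusted p = 0.459). The highest estimates were those of Gins2 (0.12, SE 0.50) and Cdc20 (0.26, SE 0.38), each smaller than its error. Mki67 had a log2 fold change of 0.09 (SE 0.22), Top2a of -0.19 (SE 0.21) and Pcna of -0.32 (SE 0.13, edgeR adjusted p = 0.459). The values depended on which Flox control was kept. Without Flox control 1 all 44 estimates were negative, with medians of -0.33 for the S and -0.22 for the mitotic members, and none was called. Without Flox control 2 the S median was still negative (-0.12) and the mitotic median was positive (0.10). There were then 10 calls, 6 higher and 4 lower in the Ms4a3 cKO libraries, while 4664 of 15064 genes were called, a larger share than that of the members. The microglia of Flox control 1 lay mostly in other clusters than those of the other libraries, and the part of this in the values was not tested.

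In monocyte-macrophages, the class in which Htr2b was lower in the Ms4a3 cKO libraries, all 44 estimates were negative and none was called, against 0% of 13196 genes tested. The medians were -1.13 for the S members and -1.97 for the mitotic members, against -0.02 for all genes. At an unadjusted p under 0.05 there were 2 members, Cdc6 and Uhrf1, and 1518 genes in all. DESeq2 called 432 genes, 1 of them a member, and without the filter on low counts edgeR called 35 members, all lower, against 3.29% of all genes called lower. The lowest estimates were those of Birc5 (-2.89, SE 1.27, edgeR adjusted p = 0.455) and Pclaf (-2.80, SE 1.14, edgeR adjusted p = 0.438). The highest were those of Mcm3 (-0.41, SE 0.20, edgeR adjusted p = 0.470) and Bub1b (-0.47, SE 0.72, edgeR adjusted p = 0.785). These values rested on Flox control 1. Without it the medians were -0.23 for the S and 0.30 for the mitotic members, with no call, and without Flox control 2 there were 41 calls, all lower in the Ms4a3 cKO libraries, against 16.9% of all genes called lower. Most monocyte-macrophages of Flox control 1 lay in a cluster with few cells of the others, so the state of these cells and the genotype cannot be told apart in that library.

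**Figure D4:**
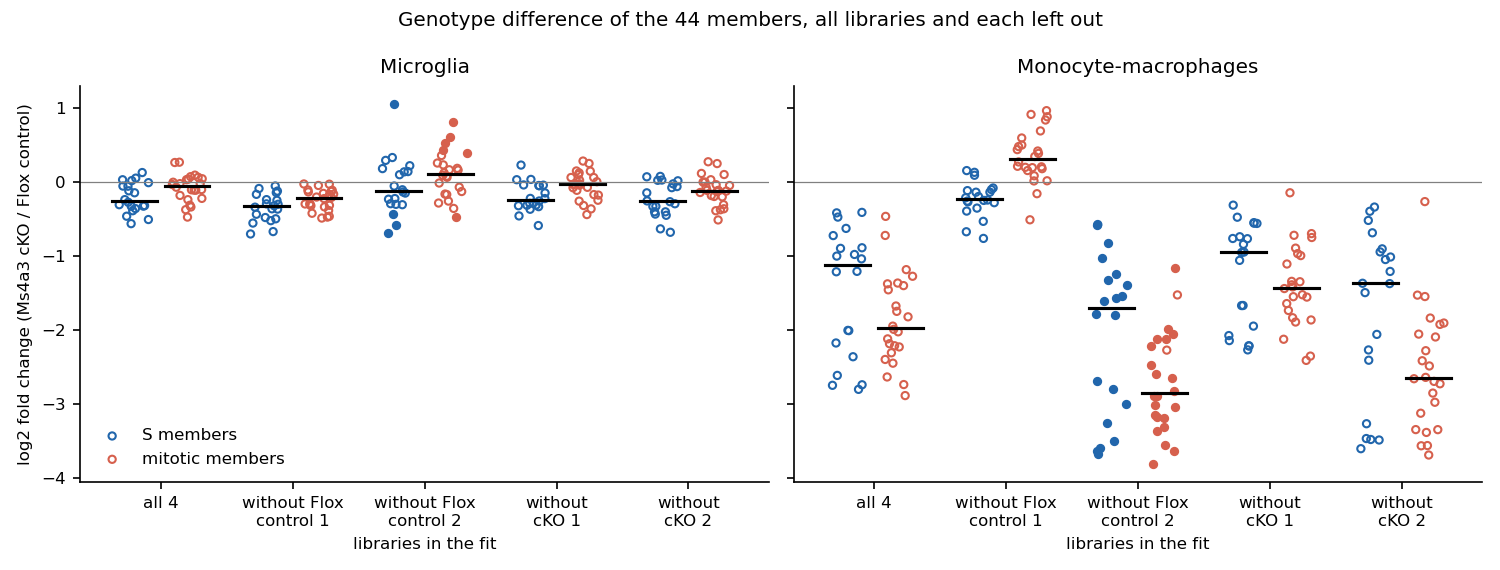
Log2 fold change between Ms4a3 cKO and Flox control libraries (y axis) of each S member (blue) and mitotic member (red), with all 4 libraries and with each left out (x axis), in microglia (left) and monocyte-macrophages (right). Filled points passed an adjusted p of 0.05 and bars are medians; in monocyte-macrophages the mitotic median goes from -1.97 with all libraries to 0.30 without Flox control 1.

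The genotype differences of the 2 classes were themselves compared in 1 fit. None of the 44 members was called, against 0% of 14824 genes, and none had an unadjusted p under 0.05, while 1427 genes did. The median of the difference, microglia less monocyte-macrophages, was 0.73 for the S and 1.18 for the mitotic members with all libraries. It was -0.10 and -0.46 without Flox control 1, with no member called against 0.826% of all genes. Without Flox control 2 all 44 members were called higher, against 5.88% of all genes. The number of cycling cells gave the same result. Tested over libraries in edgeR with the number of callable cells as an offset, none of the 10 classes that could be tested had a share that differed between the groups. The log2 ratio of the shares, Ms4a3 cKO to Flox control, was -0.13 (SE 0.48, edgeR adjusted p = 0.998) in microglia, -2.003 (SE 1.09, edgeR adjusted p = 0.789) in monocyte-macrophages and -2.39 (SE 1.63, edgeR adjusted p = 0.789) in dendritic cells. In monocyte-macrophages it was -0.10 without Flox control 1 and -2.82 (edgeR adjusted p = 0.00382) without Flox control 2. It was also smaller at full depth (-0.54) and with the looser call of at least 3 S or 2 mitotic members (-0.96). In dendritic cells it was -0.84 without Flox control 1, -3.10 without Flox control 2 (edgeR adjusted p = 0.0702), -1.48 at full depth and -1.38 with the looser call.

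No member was called between the genotypes in any of 9 other classes with at least 50 cells in every library. All genes called came to 0.979% in border macrophages, 0.184% in oligodendrocytes, 0.00867% in astrocytes, and 0% in dendritic cells, fibroblasts, endothelial cells, neuroblasts, neutrophils and choroid plexus. In astrocytes 27 of the 43 members tested had an unadjusted p under 0.05, as had 17.3% of all genes, with medians of -0.87 for the S and -1.11 for the mitotic members, and Mki67 was at 141, 267, 115 and 131 CPM. Dendritic cells, with 15 of 36 members at that p against 8.05% of all genes, had medians of -0.79 and -2.16, and Mki67 was at 274, 76.9, 35.8 and 45.7 CPM. Neuroblasts, with 12 of 39 against 6.60% of all genes, had medians of -0.80 and -1.41. In border macrophages, where 42 members were tested, the medians were 0.06 and 0.40 and Mki67 was level at 229, 208, 220 and 222 CPM. In oligodendrocytes the mitotic median was -1.26, and Mki67 was at 60.3 CPM in Flox control 2 and 2.89, 8.45 and 18.4 CPM in the others. That library thus carried mitotic transcripts in a class named for cells not known to divide, and the part of stray transcripts in the other classes was not tested.

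Genes that are no member were next compared between cycling and other microglia of the same library. The members chose the cells, so that genes known to be transcribed with them are not independent of the choice, and their rise is a description. Cycling cells also held more UMIs per cell. The cells were pooled over the microglial clusters, whose cycling shares ran from 2.10% to 45.9% with all libraries together. Differences between clusters and between cycling and other cells are thus mixed, and their parts were not tested. Of 13391 genes, 28.4% were called higher and 29.1% lower in cycling microglia. All 34 other replication genes, all 52 other mitotic genes and all 24 chromatin and tubulin genes were higher, with median log2 fold changes of 2.79, 4.75 and 1.87 against -0.03 for all genes. Fen1, which processes Okazaki fragments, was counted at 194, 241, 241 and 231 CPM in cycling and 28.3, 38.00, 39.7 and 38.2 CPM in other microglia. Asf1b, a histone chaperone, was at 90.1, 63.7, 70.4 and 71.4 CPM against 3.68, 3.23, 4.01 and 3.34 CPM. Kif20b, a mitotic kinesin, was at 218, 227, 205 and 223 CPM against 7.87, 7.76, 6.80 and 7.20 CPM, and Cbx5, a heterochromatin protein, at 179, 245, 200.3 and 226 CPM against 32.7, 50.3, 37.01 and 40.9 CPM. In each of these genes all 4 libraries were higher in cycling cells, without overlap. Of 7 replication-dependent histone genes tested, 6 were higher, H1f5 the most (4.92, SE 0.28). It was at 4.07, 12.4, 9.21 and 8.22 CPM in cycling and 0.306, 0.193, 0.342 and 0.207 CPM in other microglia.

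The regulators of the cycle were not uniform. Of 17 genes of the Rb, E2F and MuvB group, 14 were higher in cycling microglia and 1, Rb1, was lower (log2 fold change -0.15, SE 0.05). The late repressors E2f7 (6.21, SE 0.14) and E2f8 (5.84, SE 0.10) rose most, followed by Foxm1 (4.75, SE 0.10), the activator of mitotic genes. E2f8 was at 85.9, 69.2, 57.0 and 67.9 CPM in cycling and 1.16, 1.45, 1.17 and 1.21 CPM in other microglia. E2f3 and Rbl2 did not pass. Among 6 G1 cyclins and kinases, Cdk2 (1.24, SE 0.07), Cdk4 (1.08, SE 0.06) and Ccnd1 (0.56, SE 0.06) were higher, and Ccnd3 (-2.09, SE 0.08) and Ccnd2 (-1.08, SE 0.33) lower. Ccnd3, a D cyclin, was at 9.82, 15.4, 34.1 and 30.5 CPM in cycling and 35.3, 78.8, 151 and 127 CPM in other microglia, lower in all 4 libraries. Among 7 CDK inhibitors, Cdkn2c (3.93, SE 0.07), Cdkn2d (1.99, SE 0.14) and Cdkn2a (1.49, SE 0.23) were higher and Cdkn1c (-1.69, SE 0.24) lower. Cdkn2c was at 171, 89.0, 83.2 and 89.1 CPM against 9.84, 6.61, 5.62 and 6.31 CPM. Cdkn1a and Cdkn1b, which encode p21 and p27, had log2 fold changes of 0.03 each (SE 0.06 and 0.05) and were not called.

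Genes of microglial identity and growth were mostly lower in the cycling cells, pooled over clusters. Of 10 homeostatic genes, 8 were lower and none was higher (median log2 fold change -0.54). Siglech (-2.07, SE 0.11) was at 158, 75.6, 55.6 and 77.2 CPM in cycling and 574, 461, 219 and 295 CPM in other microglia. Sall1, a microglial transcription factor, fell too (-0.87, SE 0.07), as did Selplg (-0.60, SE 0.05) and Csf1r (-0.82, SE 0.05), the receptor of the microglial growth factors. Of 11 growth control genes, 7 were lower and only Igf1 was higher (0.49, SE 0.06). Klf4, a factor of cell cycle exit in many cells (-2.32, SE 0.20), was at 54.8, 98.8, 98.6 and 74.6 CPM against 178, 392, 986 and 368 CPM, and Maf was also lower (-0.53, SE 0.07). Of 11 genes of the p53 response, 5 were lower and 2 higher, against 29.1% and 28.4% of all genes. Btg2, an antiproliferative gene (-1.64, SE 0.09), was at 240.4, 228, 267 and 335 CPM in cycling and 942, 719, 825 and 873 CPM in other microglia. Trp53inp1 (-1.18, SE 0.09), Sesn1 (-0.51, SE 0.07) and Mdm2 (-0.31, SE 0.06) were lower as well.

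Of 12 genes of disease-associated microglia, 8 were higher in cycling microglia and 2 lower, with a median of 0.32. Spp1, or osteopontin (1.04, SE 0.07), was at 11784, 17595, 14812 and 13907 CPM against 4868, 9956, 7245 and 7190 CPM. Fabp5 (0.62, SE 0.05), Lgals3 (0.77, SE 0.06) and Lpl (0.70, SE 0.06) were also higher. Each of these 4 rose in all 4 libraries. Apoe and Axl were the 2 lower genes. Of 12 tissue macrophage genes 4 were higher and 2 lower, with a median of 0.095. Over all genes 28.4% were called higher and 29.1% lower, so these counts lay near and below the shares of all genes. Cd36 (0.78, SE 0.09), Gpnmb (0.38, SE 0.06) and Ms4a7 (0.46, SE 0.09) were higher and Apoe (-0.27, SE 0.07) lower. Of 9 early monocyte genes tested, S100a4 was higher (0.61, SE 0.17) and Plac8 (-0.82, SE 0.24) and Vcan (-0.63, SE 0.20) lower. Ly6c2 and Ccr2, with means of 1.63 and 6.15 CPM, were not called.

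Outside the cell cycle lists, the 10 genes with the largest rise in cycling microglia among those with at least 50 CPM on average were Prr11, Fbxo5, Diaph3, Slc43a3, Tmpo, Dnajc9, Atad5, Ulbp1, Timeless and Iqgap3. Prr11 (6.07, SE 0.10) was at 146, 133, 136 and 149 CPM in cycling and 1.87, 2.07, 1.66 and 2.83 CPM in other microglia. Fbxo5, or Emi1, an inhibitor of the anaphase-promoting complex, had a log2 fold change of 4.27 (SE 0.09). Ulbp1, a ligand of the NKG2D receptor (2.52, SE 0.09), was at 143, 162, 125 and 135 CPM against 23.9, 36.1, 18.97 and 22.8 CPM. The 10 with the largest fall were Klf4, Siglech, Abca9, Lifr, Entpd1, Agmo, Btg2, Crebrf, Slfn5 and Csmd3. Of these, Klf4, Siglech, Abca9, Agmo and Csmd3 were also among the 10 leading genes of a cluster with 2.46% of its callable cells cycling. Entpd1, the ectonucleotidase CD39 (-1.68, SE 0.06), was at 74.7, 63.5, 57.4 and 68.4 CPM in cycling and 228, 227, 192 and 211 CPM in other microglia. Abca9, an ABC transporter (-1.94, SE 0.07), was at 76.3, 66.4, 89.6 and 93.2 CPM against 245, 273, 355 and 405 CPM.

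In monocyte-macrophages the same comparison had 730 cycling cells, 548 of them from Flox control 1, and 36 to 100 in each of the other libraries. It too pooled clusters, whose cycling shares ran from 1.57% to 15.2%. Of 12299 genes, 8.24% were called higher and 8.59% lower. Of the other replication genes 33 of 34 were higher, of the other mitotic genes all 52, and of the chromatin and tubulin genes all 24, with medians of 2.37, 4.73 and 1.67 against -0.07 for all genes. Stmn1, a microtubule regulator (4.32, SE 0.11), was at 1428, 805, 753 and 1121 CPM in cycling and 97.1, 30.5, 30.2 and 50.3 CPM in other cells. Racgap1, which acts in cytokinesis (4.67, SE 0.13), was at 248, 171, 173 and 269 CPM against 9.79, 6.79, 6.39 and 8.33 CPM. E2f7 (6.76, SE 0.34), E2f8 (4.80, SE 0.20) and Foxm1 (5.80, SE 0.38) were again among 11 of 17 higher regulators. Cdk2 (1.27, SE 0.16), Ccnd1 (1.43, SE 0.20) and Cdk4 (0.64, SE 0.12) were higher, and so were Cdkn2c (3.61, SE 0.18) and Cdkn2d (1.99, SE 0.25). Ccnd3, lower in cycling microglia, was at 2.79, 23.1, 74.9 and 28.7 CPM in cycling and 5.37, 18.3, 52.6 and 36.9 CPM in other monocyte-macrophages (-0.21, SE 0.22, edgeR adjusted p = 0.616), and the difference between the classes was not tested.

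The lists of cell state were mostly lower in cycling monocyte-macrophages where they were called. Of 12 genes of the disease-associated list, 6 were lower and 1, Cd9, was higher (0.37, SE 0.10). Apoe (-0.56, SE 0.07), Gpnmb (-0.62, SE 0.10) and Axl (-0.63, SE 0.16) were lower. Spp1 was at 34605, 7466, 2613 and 4129 CPM in cycling and 31452, 9037, 3065 and 5524 CPM in other cells (-0.28, SE 0.08), lower in all but Flox control 1. Of 12 tissue macrophage genes 4 were lower, Thbs1 the most (-1.05, SE 0.12), at 906, 1390, 3688 and 2836 CPM against 1087, 3936, 6957 and 6390 CPM. Growth control genes were lower in 5 of 11, among them Maf (-0.54, SE 0.11), a transcription factor that restrains division of macrophages. Btg2 (-0.61, SE 0.14) and Trp53inp1 (-0.71, SE 0.17) of the p53 list and S100a6 (-0.39, SE 0.11) and Vcan (-0.71, SE 0.22) of the early monocyte list were lower. Cx3cr1, of the homeostatic microglial list, was higher (0.60, SE 0.12), at 462, 763, 362 and 399 CPM against 482, 385, 169 and 216 CPM, and the other 9 genes of that list were not called.

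Outside the cell cycle lists, the 10 genes with the largest rise were Prr11, Slc43a3, Tmpo, Nrm, Psip1, Dnajc9, Topbp1, Plp2, Usp1 and Selenoh, and Prr11 (6.06, SE 0.20) was at 120.0, 78.8, 88.0 and 137 CPM against 1.44, 1.77, 1.41 and 1.01 CPM. The 10 with the largest fall were Saa3, Chil3, Il18bp, Slfn5, Il1b, Atp6v0d2, Arg2, Thbs1, Nr4a1 and Atxn1. Chil3, a marker of alternatively activated macrophages (-1.36, SE 0.13), was at 34.7, 119, 3568 and 1863 CPM in cycling and 143, 382, 6497 and 2979 CPM in other cells. Il1b, the cytokine interleukin 1 beta (-1.18, SE 0.14), was at 12.5, 185, 717 and 269 CPM against 53, 252, 1275 and 584 CPM. Both were lower in cycling cells of all 4 libraries, while their levels differed more between the libraries than between the cells. With all libraries 2071 genes were called, without Flox control 1 the number was 1286, and with the thinned UMIs it was 990.

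**Figure D5:**
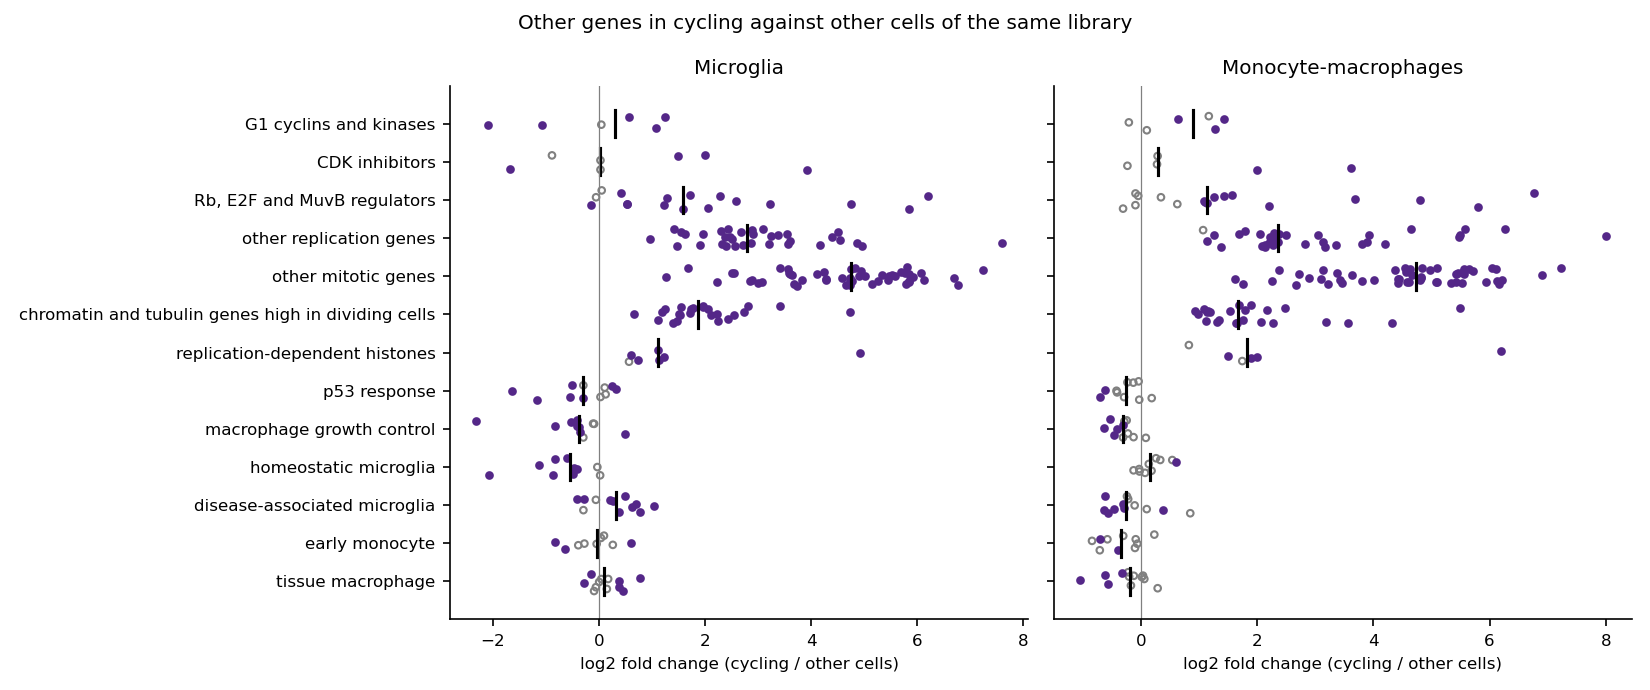
Log2 fold change between cycling and other cells of the same library (x axis) for the genes of each list (y axis) in microglia (left) and monocyte-macrophages (right). Filled points passed an adjusted p of 0.05 and bars are medians; other mitotic genes have medians of 4.75 and 4.73, and homeostatic genes medians of -0.54 and 0.16.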

How the data were processed

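RNA of single cells was measured in 4 libraries, 2 Flox control and 2 Ms4a3 cKO, holding between 77580518 and 105566650 UMIs each. The authors deposited raw UMI counts per gene and barcode, and each deposited barcode had at least 500 UMIs. The submitters' processing notes name fastp 0.24.0, STARsolo and mm10; their settings were not found in the labels. A barcode was kept with 500 or more UMIs, 250 or more genes and less than 20% of its UMIs from mitochondrial genes. Doublets predicted by Scrublet at an expected rate of 6% (1.50% to 2.50% of a library) were removed. Cells were clustered with scanpy 1.11.5, anndata 0.12.19 and leidenalg 0.10.2 in Python 3.11.15, without batch integration. The members and the genes of the cell cycle lists were left out of the clustering, and clusters were named by hand from markers.

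Counts were summed per library and class and tested with edgeR 4.0.16 in R 4.3.3 (filterByExpr, TMM, quasi-likelihood test, Benjamini-Hochberg adjustment over all genes, threshold 0.05), with DESeq2 1.42.0 as an alternative. The SE is the log2 fold change divided by the root of the F statistic. With 2 libraries a group the smallest exact permutation p is 0.333, so no such test was used. The code of the fits was checked on simulated counts with an equal spread for all genes and no library apart. Such counts say nothing of power or error in these data. Cycling and other cells of a class were compared with the library as a block. Other alternatives were the scaling, the filter on low counts, doublets kept, cell cycle genes used for clustering, other resolutions, other call rules and depths, and each library left out. The members and lists were chosen with earlier results of these data known. Members were named by level, by passing a test or by the largest rise or fall, list genes by the smallest p (up to 4 per list), and other genes by the largest fold change in either direction (10 each) among called genes averaging 50 CPM or more and 1 direction in all 4 libraries. List genes beyond these, such as Rb1, E2f3, Rbl2, Cdkn1a, Cdkn1b, Ly6c2 and Ccr2, and the cell cycle members named at an unadjusted p were named after their values were seen. Clec7a was not analysed here. Older list symbols were matched to newer ones by gene ID.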

Additional observations from a re-analysis of the deposited data

Results flagged for a closer look

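The 2 clusters left without a name entered no comparison, yet held many cells with a cycling call. They were left unnamed for their low depth and leading genes, although the 11 microglial markers summed to 31012, 12748, 14997 and 15856 CPM in them, near the 16306 to 30016 CPM of named microglia, and the smaller cluster (269 cells) scored 2.32 for astrocyte markers. Among their callable cells the share was 43.1% in Ms4a3 cKO 1 and 43.6% in Ms4a3 cKO 2, above the 28.8% and 40.4% of the Flox controls. The exact binomial intervals of Ms4a3 cKO 1 (34.4 to 52.0) and Ms4a3 cKO 2 (36.3 to 51.2) overlapped that of Flox control 2 (31.3 to 49.9). These cells were shallow, with median depths of 1377, 677, 996 and 907 UMIs, and between 63.7% and 88.8% of them fell below the 2000 UMIs that a call needs. The part of depth in these shares was not tested.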

How the results depend on the processing

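Of the values recomputed under an alternative, 533 kept their direction and their side of the threshold or moved little, 40 were no longer called, 30 became called, 24 changed sign and 14 counts moved. Members called between the genotypes numbered 0 in microglia (0 to 10 with a library left out) and 0 in monocyte-macrophages (0 to 41 with a library left out, 1 with DESeq2, 35 with no filter on low counts). The difference between the classes gave 0 calls (0 to 44), microglia against monocyte-macrophages 40 (2 to 44), and the share of cycling cells 0 classes (0 to 1). Genes called in cycling monocyte-macrophages numbered 2071 (1286 to 1887) and 990 with the thinned UMIs. The log2 ratio of cycling microglia was -0.13 (-0.38 to 0.18). The cause of these changes was not tested, other than that fewer samples enter the fits.

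With a library left out, the genotype log2 fold changes in microglia spanned 0 for Rrm1 (-0.17 to 0.29), Mcm4 (-0.24 to 0.13), Mcm3 (-0.30 to 0.33), Gins2 (-0.44 to 1.05), Mki67 (-0.17 to 0.39), Top2a (-0.43 to 0.086), Cenpe (-0.30 to 0.43), Tpx2 (-0.13 to 0.0734), Cdk1 (-0.21 to 0.059) and Cdc20 (-0.14 to 0.80). In monocyte-macrophages they spanned 0 for Rrm1 (-1.24 to 0.0867), Mcm4 (-0.83 to 0.15), Mki67 (-2.22 to 0.21), Top2a (-2.47 to 0.18), Birc5 (-3.81 to 0.0122), Cdk1 (-2.66 to 0.27), Tpx2 (-2.60 to 0.49), Ccna2 (-3.38 to 0.38) and Bub1b (-1.16 to 0.96).

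The labels number the libraries 1 and 2 in both groups without saying what a number shares. The deviations of same-numbered libraries correlated at -0.13 in microglia and -0.17 in monocyte-macrophages. That gave no sign of pairing by number, but with few libraries, of which Flox control 1 stood apart, it cannot exclude pairing. With the replicate number as a block 0 members were called in either class, and 6 and 0 of all genes. With the crossed pairing, chosen after seeing the data, 0 members and 69 and 136 of all genes were called. Mcm3 in microglia went from -0.01 to 0.0219 with the block and 0.0223 with the crossed block. Replicates differed more among the Flox controls (SD over genes 0.904 and 0.980 on the log2 scale) than among the Ms4a3 cKO libraries (0.414 and 0.529). Precision is limited by 2 libraries a group and by the 36 to 100 cycling monocyte-macrophages in each of 3 libraries.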
